A study of Mus musculus with 12 samples.

Results

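The genes described here are the 51 protein-coding members of 4 solute carrier families (symbols that begin with *Slc22a*, *Slco* or *Slc17a* and a number, and *Slc47a1* and *Slc47a2*) that move organic anions, organic cations, urate and related molecules across cell membranes, taken by symbol from a table of 35275 genes. One further symbol, *Slc22a13b*, matched the families but was not listed as protein coding. RNA from the kidneys of 12 C57BL/6J mice at 6 months of age was sequenced as poly(A) libraries, with 4 mice in each of 3 groups. WT mice carried no engineered allele. RC/RC mice were homozygous for RC, a hypomorphic missense allele of *Pkd1*, the gene mutated in most human autosomal dominant polycystic kidney disease, and on this background they develop slowly progressive cysts. RC/RC:*Casp1*KO mice carried the same 2 *Pkd1* alleles and, in every cell and from 1 mutant line, a germline deletion in *Casp1* that removes the active-site cysteine of Caspase-1. The comparison of RC/RC with WT therefore asks what the cystic kidney changes, and the comparison of RC/RC:*Casp1*KO with RC/RC what the loss of Caspase-1 changes within it. The labels list 2 females and 2 males in each group, but the columns of the table give a group and a mouse number and no sex. The labels do not say whether the mice of a group were littermates, so the p-values measure the spread between these mice.

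The reads assigned to genes ranged from 18019819 to 24869454 per mouse. Levels are given as CPM, read counts scaled to a library of a fixed size, after TMM scaling of the 12 libraries, and levels of different genes are compared as CPM per kilobase of gene length. In every sentence that lists 4 values for a group, the mice stand in a fixed order and are called mouse 1 to mouse 4 of their group. These are names given here, not the replicate numbers of the labels. Mice 1 and 2 of each group had abundant reads of *Xist*, the RNA of the inactive X chromosome, and mice 3 and 4 did not. *Xist* was at 315, 360.0, 0.3496 and 0.234 CPM (WT), 441, 278, 0.05395 and 0.258 CPM (RC/RC) and 666, 778, 0.332 and 0.818 CPM (RC/RC:*Casp1*KO). *Ddx3y*, a gene of the Y chromosome, was at 0, 0, 75.6 and 78.5 CPM (WT), 0, 0, 55.5 and 66.02 CPM (RC/RC) and 0.115, 0, 69.4 and 69.3 CPM (RC/RC:*Casp1*KO). Each group thus held a pair of mice on each side, which the text calls mice with and without *Xist* reads; these sides were set from the data and are not the labels of single mice.

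*Slc34a1*, the phosphate transporter of the proximal tubule, was at 4894, 5555, 6113 and 6806 CPM (WT), 2671, 2034, 3969 and 5665 CPM (RC/RC) and 4003, 4155, 6759 and 5328 CPM (RC/RC:*Casp1*KO), while the liver gene *Alb* stayed between 4.77 and 24.6 CPM. *Casp1* itself was at 2.06, 1.29, 1.298 and 1.41 CPM (WT), 3.37, 3.84, 4.26 and 2.62 CPM (RC/RC) and 0.385, 0.664, 0.665 and 1.05 CPM (RC/RC:*Casp1*KO). It was higher in RC/RC than in WT mice (log2 fold change 1.21, SE 0.25, adjusted p = 0.0142) and lower in RC/RC:*Casp1*KO than in RC/RC mice (log2 fold change -2.35, SE 0.32, adjusted p = 0.00514). *Pkd1* was at 40.4, 42.5, 67.1 and 61.7 CPM (WT), 59.7, 66.95, 46.7 and 48.02 CPM (RC/RC) and 73.03, 70.2, 56.3 and 86.1 CPM (RC/RC:*Casp1*KO) and did not pass the test in any of the 3 comparisons.

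Organic anions reach the proximal tubule cell from the blood through the Oat proteins of the basolateral membrane, which exchange them for dicarboxylates, and leave into the urine through other carriers and pumps of the brush border. Organic cations enter through the Oct proteins and leave through Mate exchangers, carnitine is reclaimed by the Octn proteins, and urate is taken back or secreted by apical members of the *Slc22* and *Slc17* families. The *Slco* family carries bile acids, steroid conjugates, thyroid hormone and prostaglandins. Several of these genes are known to be expressed at different levels in male and female mouse kidneys.

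Of the 51 genes, 38 had enough counts to be tested in all 3 comparisons and 13 were tested in none. *Slc22a16*, *Slco6d1*, *Slco6c1* and *Slc17a6* had 0 counts in every mouse. This allows at most 0.166 CPM, the level of 3 counts in RC/RC:*Casp1*KO mouse 3, whose library was the smallest after TMM scaling. *Slc47a2*, *Slc17a7*, *Slco5a1*, *Slco1c1*, *Slco1a5*, *Slco1b2*, *Slco6b1* and *Slc22a20* never exceeded 12 counts in a mouse, and *Slc17a8*, a vesicular glutamate transporter, never exceeded 20. The liver transporter *Slco1b2* and the vesicular glutamate transporters were thus at or near 0 here.

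Per kilobase, the most abundant gene was *Slc22a18*, an imprinted member of uncertain substrate, with a mean of 285 CPM per kilobase over the 12 mice. Next came *Slc22a12*, the urate transporter Urat1, with 254, and other abundant genes were *Slc17a1*, an apical anion and urate carrier, with 189, *Slc47a1*, the cation exchanger Mate1, with 182, and *Slc22a8* and *Slc22a6*, the anion transporters Oat3 and Oat1, with 166 and 145 CPM per kilobase. The 11 most abundant genes by this measure held 70.2% to 81.8% of the CPM of all 51 in each mouse. At the lower end of the 38 tested genes, *Slc22a3*, the organic cation transporter Oct3, averaged 0.410 CPM per kilobase. The summed CPM of all 51 genes was 5179.5, 6209.6, 8486 and 7904 (WT), 4346, 3251, 5448 and 6981 (RC/RC) and 5699, 5243, 7599 and 6310.1 (RC/RC:*Casp1*KO). Among mice with *Xist* reads the RC/RC mice had the lowest sums, and among mice without them the RC/RC mice were below the WT mice and overlapped the RC/RC:*Casp1*KO mice.

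**Figure D1:**
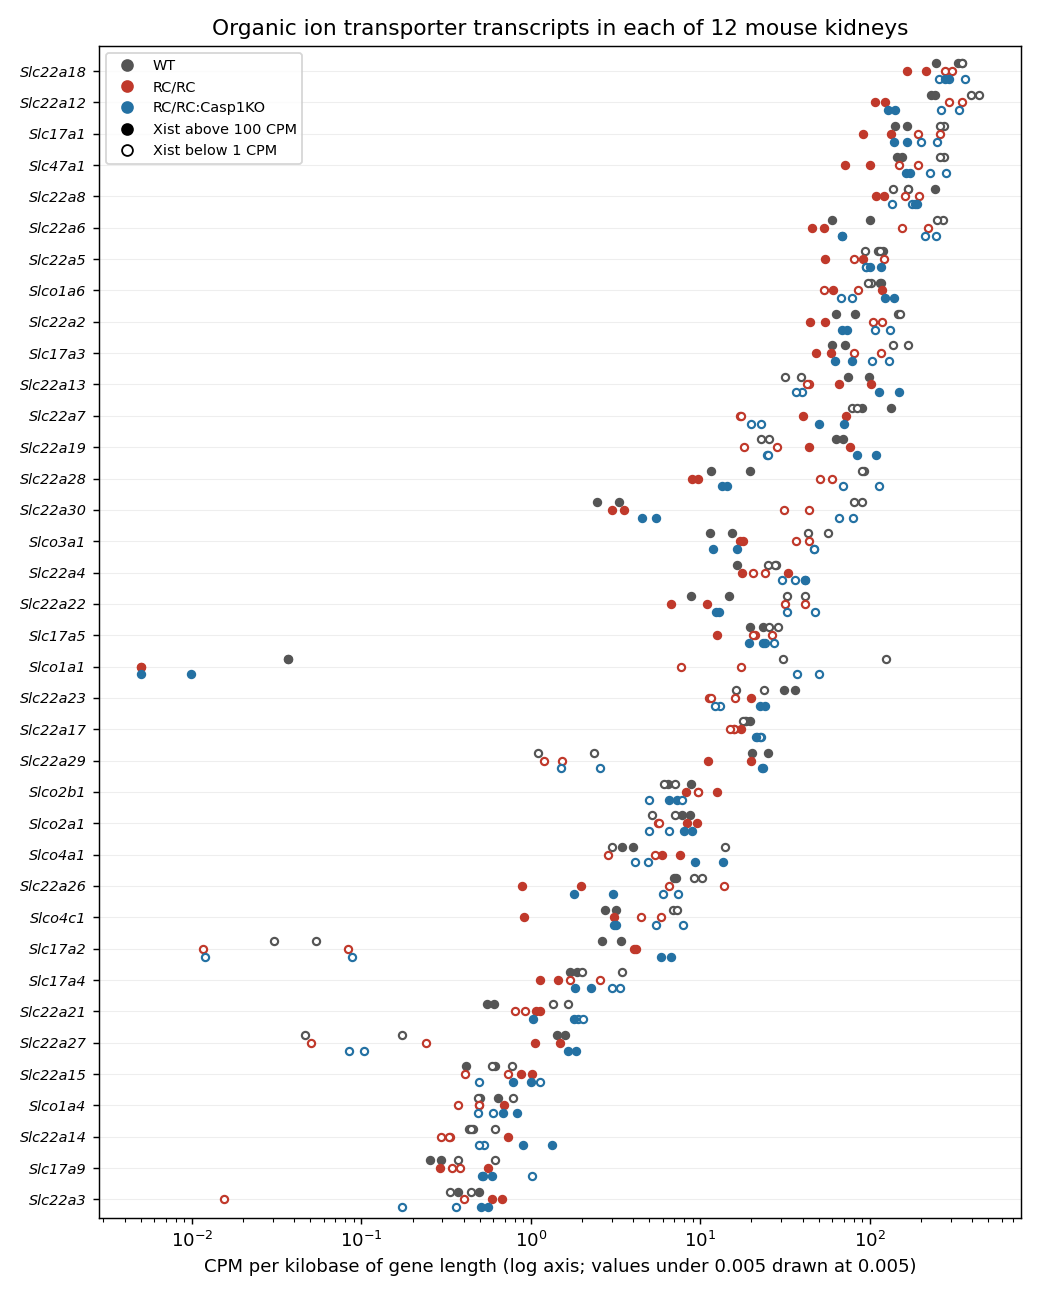
Level of 37 of the 38 tested transporter genes in each of 12 mouse kidneys, in CPM per kilobase of gene length on a log axis, with genes ordered by their mean level; colour gives the group and a filled point a mouse with *Xist* above 100 CPM. *Slco1a1*, *Slc17a2*, *Slc22a30*, *Slc22a29* and *Slc22a27* split into filled and open points whatever the group, while *Slc22a17* and *Slc22a5* do not.

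Many transporter genes separated the mice by the *Xist* split whatever the genotype. Over the 6 mice with and the 6 without *Xist* reads, 17 of the 38 tested genes had ranges that did not overlap, 6 of them higher with *Xist* reads (15.8%, against 2.05% of 15875 genes) and 11 lower (28.9%, against 2.42%). These are descriptions of sides set from the data, with no test. Higher with *Xist* reads were *Slc17a2*, *Slc22a13*, *Slc22a19*, *Slc22a27*, *Slc22a29* and *Slco2a1*, and lower were *Slc17a1*, *Slc17a3*, *Slc22a2*, *Slc22a6*, *Slc22a12*, *Slc22a22*, *Slc22a28*, *Slc22a30*, *Slco1a1*, *Slco3a1* and *Slco4c1*.

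*Slco1a1*, the anion transporter Oatp1a1, which carries steroid and bile acid conjugates, was the extreme case at 0.144, 0.144, 485 and 120.4 CPM (WT), 0, 0, 30.1 and 67.99 CPM (RC/RC) and 0.0385, 0, 145 and 196 CPM (RC/RC:*Casp1*KO). The 6 mice with *Xist* reads had at most 3 counts of it, and the other 6 ranged from 30.1 to 485 CPM. *Slc17a2*, a relative of the urate carriers, showed the opposite picture at 12.2, 15.7, 0.2497 and 0.141 CPM (WT), 19.2, 18.7, 0.05395 and 0.387 CPM (RC/RC) and 30.8, 27.2, 0.0554 and 0.409 CPM (RC/RC:*Casp1*KO), and was below 1 CPM in every mouse without *Xist* reads. *Slc22a22*, the prostaglandin carrier Oat-PG, was at 20.8, 35.1, 97.8 and 76.5 CPM (WT), 25.9, 15.9, 75.05 and 97.97 CPM (RC/RC) and 29.3, 30.5, 113 and 76.8 CPM (RC/RC:*Casp1*KO), with every mouse without *Xist* reads above every mouse with them. *Slc17a2*, *Slc22a22* and, below, *Slc22a27* and *Slc22a29* were chosen after their values were seen. Among genes that are known to follow androgen in the mouse kidney, *Kap* was at 2348, 6082, 18236 and 17560.2 CPM (WT), 4963, 2978, 14518 and 14332 CPM (RC/RC) and 6945, 3772, 18037 and 12815 CPM (RC/RC:*Casp1*KO) and *Cyp2j13* at 0.383, 0.622, 496 and 318 CPM (WT), 1.67, 0.999, 255 and 373 CPM (RC/RC) and 1.39, 0.759, 516 and 299.7 CPM (RC/RC:*Casp1*KO), also without overlap between the sides.

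Of the 51 genes, 33 lie within 500 kb of another one, in 9 groups of neighbours. The longest run holds 8 genes of the *Slc22* family on chromosome 19 (19:7673061-8628299, mm10), in the order *Slc22a19*, *Slc22a26*, *Slc22a27*, *Slc22a28*, *Slc22a29*, *Slc22a30*, *Slc22a8* and *Slc22a6*. *Slc22a28*, *Slc22a29* and *Slc22a30* are rodent relatives of the Oat genes. Their transcripts are near copies: those of *Slc22a28* and *Slc22a30* are 98.4% identical over 2252 aligned bases, and those of *Slc22a27* and *Slc22a29* 96.8% over 2088. Reads could be split between such copies in a way that the table does not show, so their single values are uncertain. In all, 15 of the 51 genes had a stretch of at least 100 bases with 90% identity to another one.

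The promoters of these neighbours are shown because the genes sit side by side and yet differ in which mice have them high: *Slc22a28* and *Slc22a30* were low and *Slc22a29* was high in mice with *Xist* reads. Each is the RefSeq window from 250 bases before to 50 bases after the gene's start, read 5′ to 3′ on the strand of the gene (build GRCm38.p6), with capitals for the stretch that aligned between *Slc22a29* and its neighbour: to *Slc22a29* in the windows of *Slc22a28* and *Slc22a30*, and to *Slc22a28* in that of *Slc22a29*.
Slc22a28 (chr19:8131933-8132232, minus strand): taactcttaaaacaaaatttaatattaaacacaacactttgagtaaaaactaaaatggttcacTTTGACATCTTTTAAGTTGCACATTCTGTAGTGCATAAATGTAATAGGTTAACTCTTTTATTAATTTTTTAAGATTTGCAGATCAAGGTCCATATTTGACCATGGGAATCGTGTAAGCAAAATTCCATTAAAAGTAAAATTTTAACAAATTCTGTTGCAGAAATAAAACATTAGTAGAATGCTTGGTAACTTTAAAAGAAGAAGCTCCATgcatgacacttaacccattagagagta
Slc22a30 (chr19:8405056-8405355, minus strand): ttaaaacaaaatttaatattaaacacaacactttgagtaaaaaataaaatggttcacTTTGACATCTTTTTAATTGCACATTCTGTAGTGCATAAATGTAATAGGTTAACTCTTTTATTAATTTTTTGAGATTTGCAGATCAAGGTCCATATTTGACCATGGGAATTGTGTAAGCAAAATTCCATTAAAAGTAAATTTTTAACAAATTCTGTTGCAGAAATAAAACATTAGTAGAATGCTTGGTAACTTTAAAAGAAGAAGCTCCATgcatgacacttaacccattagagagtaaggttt
Slc22a29 (chr19:8218851-8219150, minus strand): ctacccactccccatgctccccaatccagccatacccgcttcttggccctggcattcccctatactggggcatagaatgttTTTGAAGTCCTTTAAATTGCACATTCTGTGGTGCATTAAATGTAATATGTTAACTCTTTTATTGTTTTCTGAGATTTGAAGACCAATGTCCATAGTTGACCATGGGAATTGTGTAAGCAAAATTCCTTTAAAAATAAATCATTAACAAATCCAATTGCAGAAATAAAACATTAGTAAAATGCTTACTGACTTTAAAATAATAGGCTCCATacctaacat

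The windows of *Slc22a28* and *Slc22a30* were 97.96% identical over 294 bases, and that of *Slc22a29* was 85.3% identical to *Slc22a28* over 211 bases although its level ran the opposite way. RefSeq windows were matched for 43 of the 51 genes (51 windows).

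*Slc22a28* was at 39.1, 23.02, 185 and 181 CPM (WT), 17.9, 19.2, 101 and 119 CPM (RC/RC) and 28.8, 26.9, 227 and 138 CPM (RC/RC:*Casp1*KO), and *Slc22a30* at 8.56, 6.37, 234 and 209 CPM (WT), 9.19, 7.78, 81.1 and 114 CPM (RC/RC) and 14.2, 11.8, 207 and 171 CPM (RC/RC:*Casp1*KO). Both were lower in every mouse with *Xist* reads than in any mouse without. Because these copies can exchange reads, their sum is the safer value: it was 27.03 to 47.7 CPM in mice with and 183 to 434 CPM in mice without *Xist* reads. *Slc22a29* was at 45.9, 56.6, 2.497 and 5.34 CPM (WT), 45.01, 25.2, 3.45 and 2.71 CPM (RC/RC) and 52.1, 52.98, 5.82 and 3.41 CPM (RC/RC:*Casp1*KO). Its sum with *Slc22a27* was 27.5 to 59.6 CPM with and 2.597 to 6.04 CPM without *Xist* reads, so the opposite direction of the 2 pairs of copies holds for the sums as well. Genes of different pairs are near copies too, at lower identity. *Slc22a27* and *Slc22a28* are 93.6% identical over 970 bases, and *Slc22a28* and *Slc22a29* 90.1% over 2068. Some reads could therefore also pass between the sums. *Slc22a19*, the apical anion transporter Oat5, was at 227, 248, 81.8 and 90.7 CPM (WT), 271, 156, 64.6 and 101 CPM (RC/RC) and 386, 299, 87.7 and 89.9 CPM (RC/RC:*Casp1*KO) and was higher in each mouse with *Xist* reads.

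**Figure D2:**
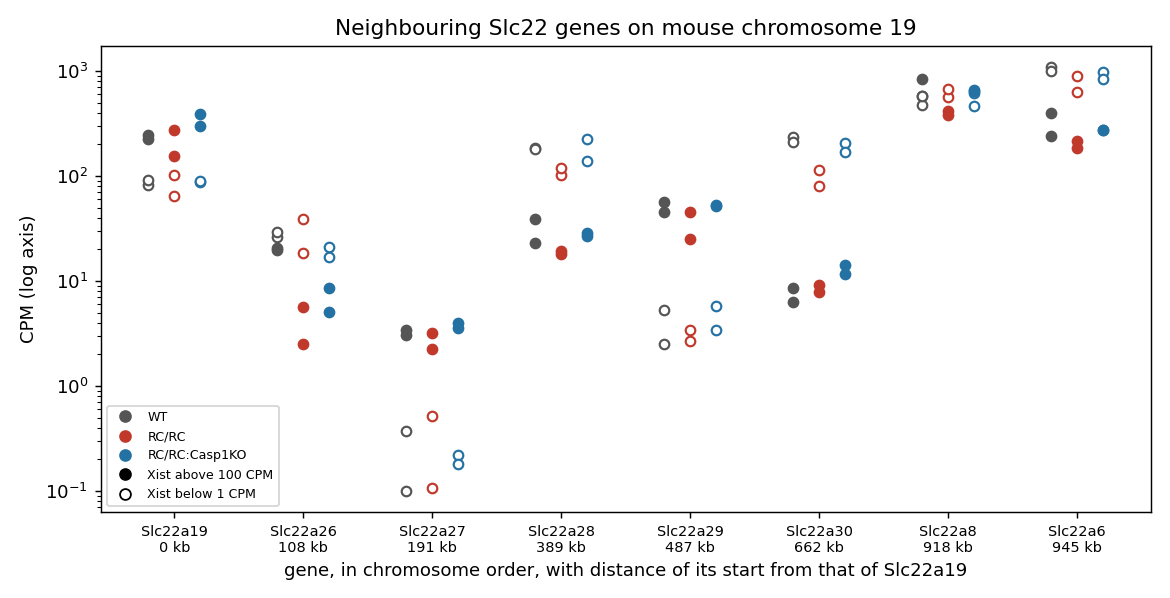
Level in CPM, on a log axis, of the 8 neighbouring *Slc22* genes on chromosome 19 in each of 12 mice, in chromosome order, with the distance of each gene's lower end from that of *Slc22a19* in kb. *Slc22a28*, *Slc22a30* and *Slc22a6* are higher in the open points (*Xist* below 1 CPM), *Slc22a19*, *Slc22a27* and *Slc22a29* in the filled points (*Xist* above 100 CPM), and *Slc22a8* in neither.

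In RC/RC against WT kidneys, most transporter genes were on the lower side, and no single gene passed the test with the groups alone. Of the 38 tested genes, 31 had a negative and 7 a positive log2 fold change, with a median of -0.31, against a median of -0.02 over all genes tested. The count called was 0 in either direction, where 9.76% of all 15243 genes were called higher and 3.18% lower, and 4 of the 38 had an unadjusted p under 0.05. With the log2 *Xist* level of each mouse as a covariate in the fit, 7 transporter genes fell and 0 rose (18.4% of the 38 lower), where 12.2% of all genes were called higher and 5.84% lower. The 7 were *Slc22a7*, *Slc47a1*, *Slc22a12*, *Slc22a2*, *Slco1a1*, *Slc22a23* and *Slc22a28*. DESeq2 without the covariate called 2 lower, *Slc22a7* and *Slc22a23*, and 0 higher, where it called 6.84% of all genes lower and 12.2% higher.

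The order of the mice was also compared without a fit. In 12 of the 38 genes (31.6%) both RC/RC mice were below both WT mice on each side of the *Xist* split, and in 0 of them above, where 11.9% of all genes were lower and 17.3% higher by the same rule. The 12 were *Slc22a2*, *Slc22a6*, *Slc22a7*, *Slc22a12*, *Slc22a17*, *Slc22a18*, *Slc22a23*, *Slc22a28*, *Slc17a1*, *Slc17a3*, *Slc47a1* and *Slco1a1*. For *Slco1a1* the side with *Xist* reads holds only 0 counts in RC/RC against at most 3 in WT mice, which is at the floor, so that 11 genes have values on both sides. *Slc22a7* and *Slc22a17* were lower in all 4 RC/RC mice than in any WT mouse. In whole kidney tissue, fewer proximal tubule cells and less RNA of a gene per cell cannot be told apart. Of the 6 proximal tubule markers 2 fell, where 3.18% of all genes were called lower, and their median was -0.999 on the log2 scale. The tubule segment that holds most of these transporters thus moved the same way. Its part in the result was not tested.

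The balance turned in RC/RC:*Casp1*KO against RC/RC kidneys. Of the 38 tested genes, 33 had a positive and 5 a negative log2 fold change, with a median of 0.32 against -0.03 over all genes. One gene, *Slc22a17*, rose and 0 fell, where 7.23% of all 15428 genes were called higher and 4.41% lower, and 6 of the 38 had an unadjusted p under 0.05. With the *Xist* level as a covariate, 7 rose and 1 fell (18.4% and 2.63% of the 38), where 9.79% and 7.3% of all genes were called. The 7 were *Slc22a17*, *Slc47a1*, *Slc22a4*, *Slco1a1*, *Slc22a28*, *Slc22a30* and *Slc17a4*, and *Slco2b1* was the one that fell. On each side of the split both RC/RC:*Casp1*KO mice had more *Xist* than both RC/RC mice. The covariate thus differed by group here, and its effect cannot be fully told apart from that of the group. With *Ddx3y* in place of *Xist*, 6 rose and 1 fell, where 9.85% and 7.25% of all genes were called. DESeq2 without the covariate called 3 higher, *Slc22a17*, *Slc22a4* and *Slc22a21*, and 1 lower, *Slco2b1*, where it called 11.3% and 9.46% of all genes. On both sides of the *Xist* split, 7 genes were higher without overlap and 1 lower, 18.4% and 2.63%, against 16.6% and 14.5% of all genes, so the share of higher genes was near the background.

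The transporters were close to balance in RC/RC:*Casp1*KO against WT kidneys. Of the 38 genes, 17 had a positive and 21 a negative log2 fold change, with a median of -0.03 against 0.01 over all genes. The count called was 0 in either direction, where 1.13% of all 15346 genes were called higher and 0.893% lower, while 4 of the 38 had an unadjusted p under 0.05. DESeq2 called 2 higher, *Slc22a17* and *Slc22a4*, and 1 lower, *Slc22a7*, where it called 4.8% and 4.11% of all genes. With the *Xist* level, 4 fell and 1 rose (10.5% and 2.63%), where 3.83% and 4.76% of all genes were called. Those that fell were *Slc22a7*, *Slc22a12*, *Slc22a23* and *Slc22a26*, and *Slc22a17* rose. On both sides of the split, 3 genes were higher and 4 lower without overlap, against 12.2% and 11.8% of all genes. The 3 comparisons share mice in pairs, so their values for a gene are set side by side below and are not independent of each other.

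**Figure D3:**
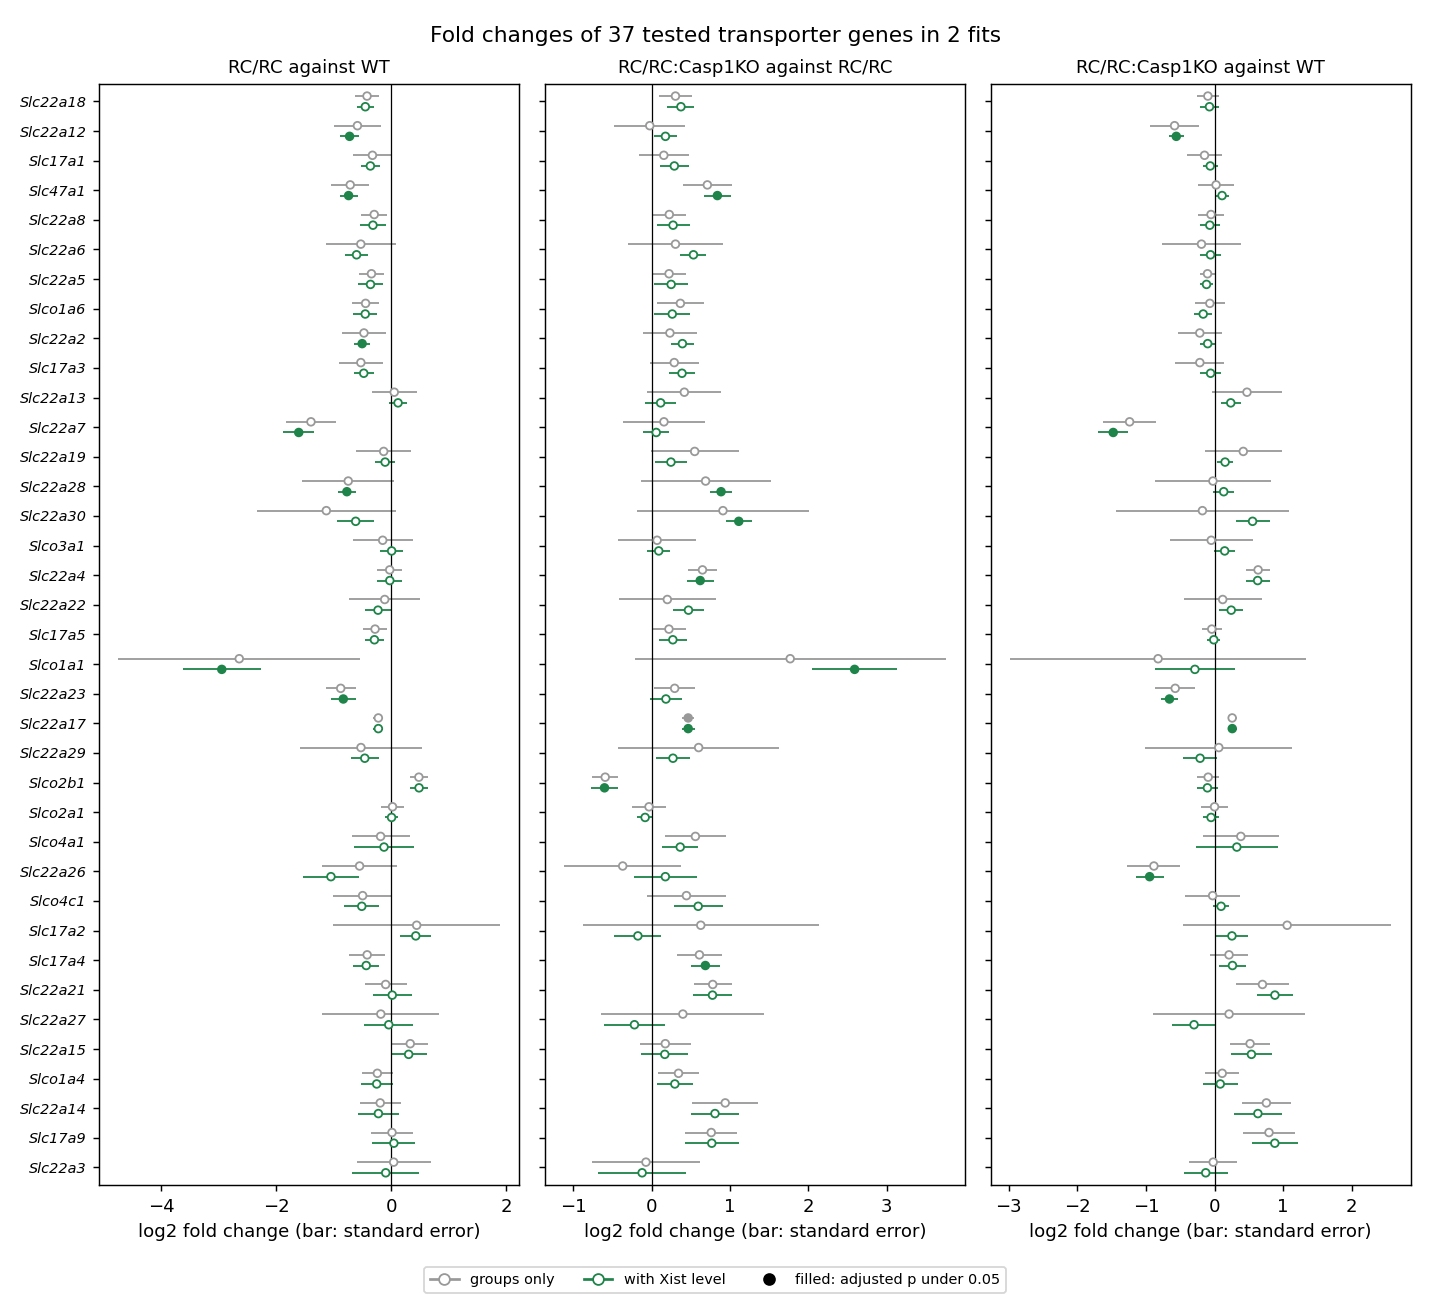
Log2 fold change and standard error of 37 of the 38 tested transporter genes in the 3 comparisons, from edgeR with the groups alone (grey) and with the *Xist* level as a covariate (green); filled points have an adjusted p under 0.05. The green bars of *Slco1a1*, *Slc22a28*, *Slc22a30* and *Slc22a6* are much shorter than the grey ones, and *Slc22a7* is called lower in both comparisons with WT in the green fit.

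*Slc22a7*, the anion transporter Oat2, differed more from WT in both other groups than *Slc22a6* and *Slc22a8* did. It was at 180.0, 267, 157 and 169 CPM (WT), 145, 81.1, 34.4 and 34.96 CPM (RC/RC) and 141, 100.1, 39.99 and 45.9 CPM (RC/RC:*Casp1*KO). All RC/RC mice were below all WT mice, and the RC/RC mice without *Xist* reads were the lowest of the group. Against WT its log2 fold change in RC/RC was -1.40, SE 0.44, adjusted p = 0.0679, and in the fit with the *Xist* level it fell (log2 fold change -1.61, SE 0.27, adjusted p = 0.003996), a call that held when each of the 8 mice was left out in turn. The RC/RC:*Casp1*KO mice were again all below the WT mice; against WT they had a log2 fold change of -1.24, SE 0.39, adjusted p = 0.132 with the groups alone and -1.48, SE 0.22, adjusted p = 0.00693 with the *Xist* level. With RC/RC as the reference, RC/RC:*Casp1*KO mice gave a log2 fold change of 0.16, SE 0.53, adjusted p = 0.864, with overlapping groups.

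*Slc22a6*, the transporter Oat1, which takes up para-aminohippurate and many drugs, was at 242, 401, 1088 and 1001 CPM (WT), 215, 183, 625 and 888 CPM (RC/RC) and 276, 277, 988 and 845 CPM (RC/RC:*Casp1*KO). Every mouse without *Xist* reads was above every mouse with them, and on each side the RC/RC mice were below the WT mice. The log2 fold change in RC/RC against WT was -0.53, SE 0.60, adjusted p = 0.589, and -0.60, SE 0.20, adjusted p = 0.0686 with the *Xist* level, which did not pass the threshold. *Slc22a8*, the transporter Oat3, which shares many substrates with Oat1 and lies next to it, was at 584, 842, 479 and 582 CPM (WT), 420.4, 377, 562 and 675 CPM (RC/RC) and 644, 661, 618 and 466 CPM (RC/RC:*Casp1*KO). Its groups overlapped and neither RC/RC against WT (log2 fold change -0.30, SE 0.23, adjusted p = 0.417) nor RC/RC:*Casp1*KO against RC/RC (log2 fold change 0.23, SE 0.22, adjusted p = 0.4998) passed.

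Organic cations are taken up by Oct proteins such as *Slc22a2*, the transporter Oct2, and extruded by *Slc47a1*. *Slc47a1* was at 434, 462, 818 and 771 CPM (WT), 299, 213, 442 and 573 CPM (RC/RC) and 490.3, 513, 837 and 675 CPM (RC/RC:*Casp1*KO). On both sides of the split the RC/RC mice were the lowest, and the RC/RC:*Casp1*KO mice were above them. In RC/RC against WT the log2 fold change was -0.71, SE 0.33, adjusted p = 0.187; with the *Xist* level it fell (log2 fold change -0.74, SE 0.16, adjusted p = 0.0109), in all 8 fits that left out a mouse. In RC/RC:*Casp1*KO against RC/RC it had a log2 fold change of 0.71, SE 0.31, adjusted p = 0.153 and, with the *Xist* level, it rose (log2 fold change 0.84, SE 0.18, adjusted p = 0.0177), a call that was lost without RC/RC mouse 3 or RC/RC:*Casp1*KO mouse 2 or 3.

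*Slc22a2* was at 134, 172, 310.4 and 317 CPM (WT), 115, 93.9, 219 and 249 CPM (RC/RC) and 155, 144, 278 and 225 CPM (RC/RC:*Casp1*KO). It followed the *Xist* split, and with the *Xist* level it fell in RC/RC against WT (log2 fold change -0.51, SE 0.13, adjusted p = 0.0289), where the fit of groups alone gave a log2 fold change of -0.47, SE 0.38, adjusted p = 0.4304. The call was lost in 4 of the 8 fits that left out a mouse, those without WT mouse 2 or 4 or RC/RC mouse 2 or 3. *Slc22a3*, the related transporter Oct3, which lies beside it on chromosome 17, stayed between 0.05395 and 2.37 CPM.

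*Slc22a5*, the carnitine transporter Octn2, was at 339.6, 367, 286 and 349.8 CPM (WT), 280.4, 167, 248 and 368 CPM (RC/RC) and 358, 308, 290.2 and 289 CPM (RC/RC:*Casp1*KO) and had overlapping groups in RC/RC against WT (log2 fold change -0.34, SE 0.22, adjusted p = 0.3201). *Slc22a4*, its neighbour on chromosome 11 and the ergothioneine transporter Octn1, was at 37.1, 62.99, 61.97 and 56.4 CPM (WT), 74.8, 39.97, 46.5 and 54.7 CPM (RC/RC) and 93.8, 94.1, 82.1 and 68.2 CPM (RC/RC:*Casp1*KO). On both sides of the split the RC/RC:*Casp1*KO mice were above both of the other groups. Against RC/RC the log2 fold change was 0.65, SE 0.19, adjusted p = 0.0521; with the *Xist* level it rose (log2 fold change 0.62, SE 0.17, adjusted p = 0.0381), but not in 4 of the 8 fits that left out a mouse, those without RC/RC mouse 3 or RC/RC:*Casp1*KO mouse 1, 2 or 3. Against WT it had a log2 fold change of 0.64, SE 0.18, adjusted p = 0.101, which did not pass.

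Of the urate transporters, *Slc22a12*, which takes urate back from the tubular fluid, was at 504, 538, 968 and 874 CPM (WT), 238, 271, 651 and 773 CPM (RC/RC) and 282, 309.9, 747 and 579.9 CPM (RC/RC:*Casp1*KO). On each side of the split the RC/RC and the RC/RC:*Casp1*KO mice were below the WT mice. With the *Xist* level it fell in RC/RC against WT (log2 fold change -0.72, SE 0.16, adjusted p = 0.0138) in all 8 fits that left out a mouse, and the fit of groups alone gave a log2 fold change of -0.59, SE 0.41, adjusted p = 0.361. Against WT it also fell in RC/RC:*Casp1*KO mice with the *Xist* level (log2 fold change -0.56, SE 0.11, adjusted p = 0.0195; log2 fold change -0.58, SE 0.35, adjusted p = 0.359 with the groups alone), in 3 of the 8 fits that left out a mouse and not in those without WT mouse 1 or 2 or RC/RC:*Casp1*KO mouse 1, 2 or 4. With RC/RC as the reference, RC/RC:*Casp1*KO mice gave a log2 fold change of -0.02, SE 0.45, adjusted p = 0.978, whose sign changed with the setting.

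*Slc17a1*, the apical carrier Npt1, was at 286, 334, 553 and 526 CPM (WT), 269, 183, 389 and 524 CPM (RC/RC) and 335, 282, 505 and 408 CPM (RC/RC:*Casp1*KO), and *Slc17a3*, the urate efflux carrier Npt4, at 255, 305, 712 and 585 CPM (WT), 251, 205, 344 and 498 CPM (RC/RC) and 337, 266, 556 and 437 CPM (RC/RC:*Casp1*KO). Both followed the *Xist* split and were lower in RC/RC than in WT mice on each side, and neither passed with the groups alone or with the *Xist* level. *Slc22a13*, the urate and nicotinate transporter Oat10, was at 147, 195, 62.2 and 77.5 CPM (WT), 201, 130.3, 86.3 and 83.6 CPM (RC/RC) and 293, 223, 78.4 and 72.7 CPM (RC/RC:*Casp1*KO), higher in mice with *Xist* reads in all 3 groups. *Slc22a13* lies wholly within the listed span of *Slc22a14* on the same strand (16104 shared bases), so the low counts of *Slc22a14* may include some of its reads.

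Among the *Slco* genes, *Slco1a1* rested on the mice without *Xist* reads. In those mice the RC/RC values of 30.1 and 67.99 CPM were below the WT values of 485 and 120.4 CPM, and the RC/RC:*Casp1*KO values of 145 and 196 CPM were above those of RC/RC. With the groups alone the log2 fold changes were -2.64, SE 2.11, adjusted p = 0.4299 in RC/RC against WT and 1.77, SE 1.98, adjusted p = 0.572 in RC/RC:*Casp1*KO against RC/RC. With the *Xist* level it fell in the first (log2 fold change -2.95, SE 0.68, adjusted p = 0.0163), except without WT mouse 3 or RC/RC mouse 3, and rose in the second (log2 fold change 2.59, SE 0.54, adjusted p = 0.01702) whichever mouse was left out. The size rested on single mice. The first log2 fold change was -1.48 without WT mouse 3, -3.68 without WT mouse 4 and -4.08 without RC/RC mouse 4. The second was 3.75 without RC/RC mouse 4 and 1.86 without RC/RC:*Casp1*KO mouse 4, and was 1.48 with *Ddx3y* in place of *Xist*.

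*Slco2b1*, an anion transporter of wide tissue range, was at 38.7, 28.3, 26.8 and 31.2 CPM (WT), 36.02, 54.5, 42.4 and 42.3 CPM (RC/RC) and 32.01, 28.7, 21.9 and 33.9 CPM (RC/RC:*Casp1*KO). It was the reverse of most members: all 4 RC/RC:*Casp1*KO mice were below all 4 RC/RC mice. The log2 fold change there was -0.59, SE 0.17, adjusted p = 0.0518, and with the *Xist* level it fell (log2 fold change -0.60, SE 0.17, adjusted p = 0.0405), in 2 of 8 fits that left out a mouse, those without RC/RC mouse 1 or RC/RC:*Casp1*KO mouse 4. In RC/RC against WT it had a log2 fold change of 0.48, SE 0.16, adjusted p = 0.0785.

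The remaining *Slco* genes were not called with the groups alone or with the *Xist* level. *Slco1a6*, the most abundant of them per kilobase, was at 329, 321, 284 and 273 CPM (WT), 329.8, 170.1, 151 and 241 CPM (RC/RC) and 391, 345, 222 and 189 CPM (RC/RC:*Casp1*KO), and *Slco1a4* was at 2.44, 1.91, 2.996 and 1.87 CPM (WT), 2.64, 1.89, 1.89 and 1.42 CPM (RC/RC) and 2.62, 3.18, 2.27 and 1.86 CPM (RC/RC:*Casp1*KO). *Slco2a1*, the prostaglandin transporter, was at 55.2, 61.4, 36.9 and 50.2 CPM (WT), 67.5, 59.4, 40.2 and 40.5 CPM (RC/RC) and 63.4, 57.01, 35.4 and 46.8 CPM (RC/RC:*Casp1*KO), slightly higher in all mice with *Xist* reads. *Slco1a4* and *Slco1a6* share 576 bases at 91.7% identity, which leaves room for shared reads. *Slco3a1* was at 52.0, 70.03, 261 and 197 CPM (WT), 81.9, 78.6, 168 and 199.9 CPM (RC/RC) and 75.2, 54.3, 214 and 216 CPM (RC/RC:*Casp1*KO) and *Slco4c1*, a basolateral transporter of thyroid hormone and digoxin in the kidney, at 13.4, 15.7, 33.8 and 35.5 CPM (WT), 15.2, 4.47, 22.01 and 28.6 CPM (RC/RC) and 15.1, 15.7, 38.9 and 26.8 CPM (RC/RC:*Casp1*KO); both were higher in mice without *Xist* reads. *Slc17a5*, the sialic acid exporter of the lysosome, was at 63.8, 75.2, 82.5 and 92.95 CPM (WT), 68.04, 40.4, 66.3 and 85.9 CPM (RC/RC) and 62.3, 75.9, 88.3 and 78.1 CPM (RC/RC:*Casp1*KO), and its groups overlapped in every comparison.

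*Slc22a17*, a receptor for the iron-carrying protein lipocalin 2, had tight groups, at 42.5, 44.8, 42.05 and 40.8 CPM (WT), 39.8, 36.2, 36.1 and 34.3 CPM (RC/RC) and 49.7, 48.9, 52.4 and 51.4 CPM (RC/RC:*Casp1*KO). The 3 groups did not overlap at all, with RC/RC lowest and RC/RC:*Casp1*KO highest. It rose in RC/RC:*Casp1*KO against RC/RC (log2 fold change 0.47, SE 0.08, adjusted p = 0.0113), and the call held whichever of the 8 mice was left out, with the groups alone and with the *Xist* level. Its log2 fold change was -0.22, SE 0.09, adjusted p = 0.122 in RC/RC against WT and 0.26, SE 0.07, adjusted p = 0.0898 in RC/RC:*Casp1*KO against WT, where the fit with the *Xist* level gave a log2 fold change of 0.26, SE 0.07, adjusted p = 0.0491, passing in only 1 of 8 fits that left out a mouse. *Lcn2*, which encodes lipocalin 2 and marks tubular injury, was at 2.39, 0.862, 2.25 and 1.55 CPM (WT), 104, 106, 70.7 and 49.6 CPM (RC/RC) and 8.16, 12.7, 4.65 and 62.1 CPM (RC/RC:*Casp1*KO), and thus ran far higher in RC/RC than in WT mice (log2 fold change 5.54, SE 0.37, adjusted p = 6.5e-05).

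**Figure D4:**
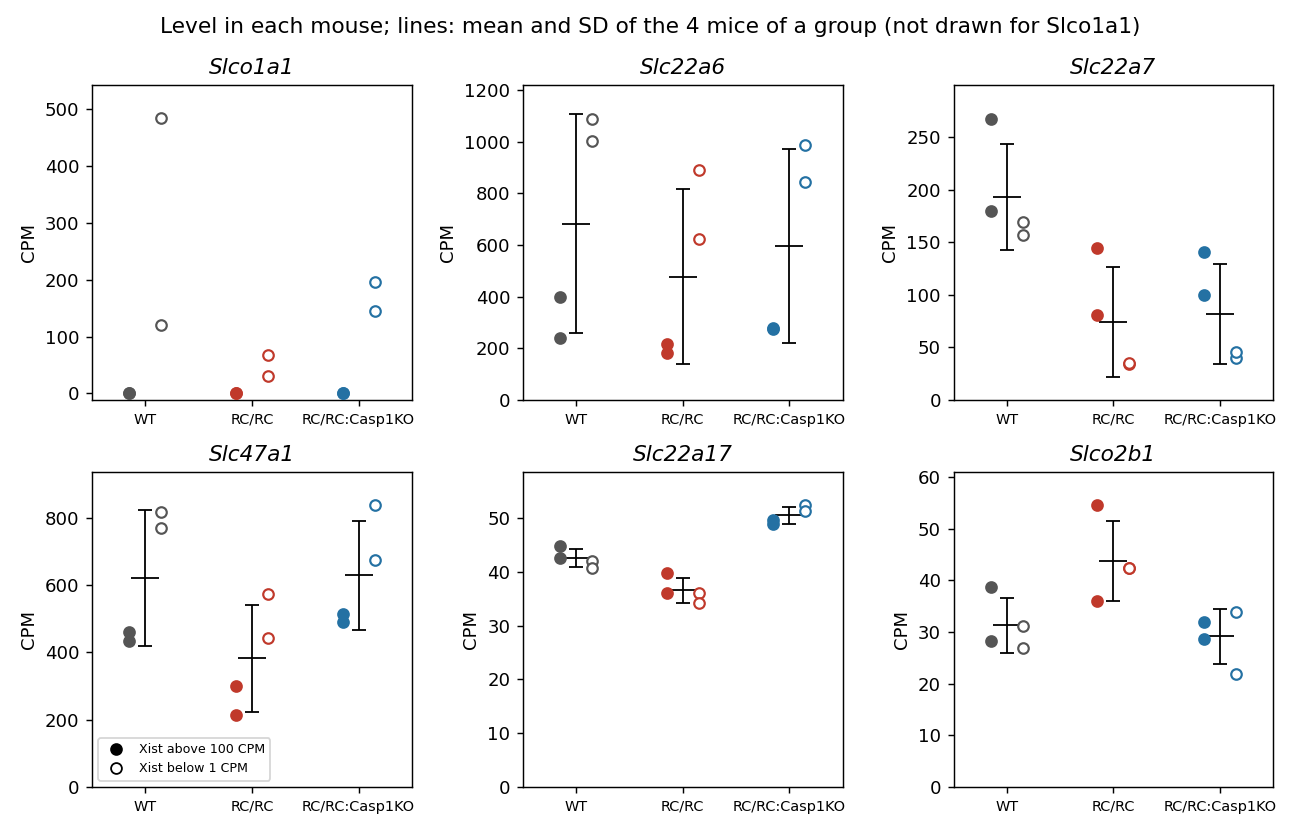
CPM of 6 transporter genes in each mouse by group, with filled points for mice with *Xist* above 100 CPM and lines for the mean and SD of the 4 mice (not drawn for *Slco1a1*, whose values split to 0 and far above). RC/RC mice are lowest in *Slc22a17* and *Slc47a1* on both sides of the split, *Slc22a7* is low in both groups with the RC allele, and *Slco2b1* is lower in all RC/RC:*Casp1*KO than in all RC/RC mice.

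A further 5 genes called with the *Xist* level are named after their values were seen. *Slc22a23*, an orphan member, was at 195, 225, 102 and 149 CPM (WT), 124, 70.5, 72.2 and 99.6 CPM (RC/RC) and 149.9, 141, 81.9 and 76.1 CPM (RC/RC:*Casp1*KO) and fell against WT in RC/RC (log2 fold change -0.83, SE 0.21, adjusted p = 0.0261) and in RC/RC:*Casp1*KO mice (log2 fold change -0.66, SE 0.12, adjusted p = 0.0156); the first call was lost without WT mouse 1, 2 or 4 or RC/RC mouse 3, the second without WT mouse 2 or RC/RC:*Casp1*KO mouse 2. *Slc22a28* fell in RC/RC against WT (log2 fold change -0.77, SE 0.16, adjusted p = 0.00938) and rose in RC/RC:*Casp1*KO against RC/RC (log2 fold change 0.89, SE 0.14, adjusted p = 0.00664), both in all 8 fits that left out a mouse. Its near copy *Slc22a30* rose in RC/RC:*Casp1*KO against RC/RC (log2 fold change 1.11, SE 0.17, adjusted p = 0.00532), likewise in all 8. With *Ddx3y* in place of *Xist* the log2 fold changes in this comparison were smaller, 0.59 for *Slc22a28* (adjusted p = 0.0308) and 0.70 for *Slc22a30* (adjusted p = 0.0115).

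*Slc22a26* was at 20.6, 19.96, 26.3 and 29.2 CPM (WT), 5.62, 2.52, 18.7 and 39.04 CPM (RC/RC) and 8.66, 5.12, 21.05 and 17.1 CPM (RC/RC:*Casp1*KO). It fell in RC/RC:*Casp1*KO against WT (log2 fold change -0.95, SE 0.21, adjusted p = 0.0287), in 3 of 8 fits that left out a mouse, the call being lost without WT mouse 1, 2 or 4 or RC/RC:*Casp1*KO mouse 1 or 4. *Slc17a4*, an intestinal and renal anion carrier, was at 4.497, 4.93, 9.14 and 5.29 CPM (WT), 3.799, 2.998, 6.74 and 4.47 CPM (RC/RC) and 4.81, 5.98, 8.86 and 7.91 CPM (RC/RC:*Casp1*KO) and rose in RC/RC:*Casp1*KO against RC/RC (log2 fold change 0.69, SE 0.19, adjusted p = 0.0381), in only 2 of 8, those without RC/RC mouse 1 or RC/RC:*Casp1*KO mouse 4.

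Genes known to regulate these transporters were set beside them as a list. Of the 16 tested and reported here, 0 rose and 1 fell in RC/RC against WT, where 3.18% of all genes were called lower, and 2 rose and 0 fell in RC/RC:*Casp1*KO against RC/RC, where 7.23% of all genes were called higher. In the fit with the *Xist* level, *Ahr* rose and *Ppara* fell in the first, and *Nr1i2*, *Ppara* and *Stat5b* rose and *Cebpb* fell in the second, beside shares of all genes of 12.2% higher and 5.84% lower and of 9.79% and 7.3%. *Ppara*, the regulator of fatty acid oxidation, was at 85.8, 101, 76.4 and 91.1 CPM (WT), 56.02, 31.03, 45.8 and 57.9 CPM (RC/RC) and 75.7, 77.4, 77.8 and 71.7 CPM (RC/RC:*Casp1*KO). It fell in RC/RC against WT (log2 fold change -0.90, SE 0.19, adjusted p = 0.01298) and rose in RC/RC:*Casp1*KO against RC/RC (log2 fold change 0.66, SE 0.18, adjusted p = 0.0421), the second in only 3 of 8 fits that left out a mouse and not without RC/RC mouse 3 or any one of the 4 RC/RC:*Casp1*KO mice. *Stat5b*, a mediator of growth hormone signals, was at 51.9, 60.2, 59.5 and 65.4 CPM (WT), 56.8, 47.2, 45.6 and 53.3 CPM (RC/RC) and 65.4, 61.9, 75.3 and 63.6 CPM (RC/RC:*Casp1*KO) and rose in RC/RC:*Casp1*KO against RC/RC (log2 fold change 0.39, SE 0.11, adjusted p = 0.0441), in 2 of 8 such fits, those without RC/RC mouse 1 or 4. *Hnf4a*, a driver of proximal tubule genes, did not pass in either comparison (log2 fold change -0.26, SE 0.18, adjusted p = 0.359 in the first). The 16 had a median log2 fold change of -0.25 in the first comparison and 0.094 in the second.

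The transport partners were 13 genes of scaffolds, the sodium pump, sodium-proton exchange and the transport of dicarboxylates, urate and bile acids. Of them, 0 rose and 1 fell in RC/RC against WT, where 9.76% of all genes were called higher and 3.18% lower. None passed in RC/RC:*Casp1*KO against RC/RC, where 7.23% and 4.41% of all genes were called. Adding the *Xist* level, 2 fell and 0 rose in the first, *Slc2a9* and *Slc9a3*, the sodium-proton exchanger of the brush border. In the second 1 rose and 0 fell, *Slc9a3*. The shares of all genes in that fit were 12.2% higher and 5.84% lower in the first and 9.79% and 7.3% in the second. The gene that fell with the groups alone was *Slc2a9*, the basolateral urate transporter Glut9, at 28.7, 32.3, 24.1 and 30.5 CPM (WT), 17.2, 8.84, 11.2 and 19.5 CPM (RC/RC) and 30.6, 24.1, 13.96 and 15.99 CPM (RC/RC:*Casp1*KO) (log2 fold change -1.03, SE 0.23, adjusted p = 0.0188); the call was lost without WT mouse 4 or RC/RC mouse 3. *Slc13a3*, which supplies the dicarboxylates that the Oat proteins exchange, was at 608, 1053, 688 and 760.4 CPM (WT), 373, 315, 451 and 716 CPM (RC/RC) and 534, 559, 548 and 405 CPM (RC/RC:*Casp1*KO) and gave a log2 fold change of -0.75, SE 0.27, adjusted p = 0.104. The median of the list was -0.29 in RC/RC against WT and 0.13 in RC/RC:*Casp1*KO against RC/RC.

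The ABC efflux pumps, which complete the route into urine, had 9 tested members. In RC/RC against WT, 1 fell and 0 rose, where 3.18% of all genes were called lower. In RC/RC:*Casp1*KO against RC/RC 1 rose and 0 fell, where 7.23% of all genes were called higher. The medians were -0.47 and 0.43. Of these pumps, 3 fell in the first with the *Xist* level, *Abcc2*, *Abcc5* and *Abcc6* (5.84% of all genes were called lower). In the second 2 rose, *Abcc2* and *Abcc5* (9.79% of all genes were called higher). *Abcc6*, a pump of liver and kidney, was at 14.1, 17.1, 26.7 and 29.0 CPM (WT), 8.68, 2.37, 4.05 and 11.2 CPM (RC/RC) and 10.004, 13.2, 10.2 and 11.9 CPM (RC/RC:*Casp1*KO). It fell in the first (log2 fold change -1.72, SE 0.45, adjusted p = 0.0338), though not without WT mouse 2, 3 or 4 or RC/RC mouse 1 or 3. *Abcc5*, a pump for cyclic nucleotides, was at 43.6, 46.7, 73.4 and 73.1 CPM (WT), 45.6, 34.7, 32.1 and 36.9 CPM (RC/RC) and 74.96, 75.4, 58.9 and 75.9 CPM (RC/RC:*Casp1*KO) and rose in the second (log2 fold change 0.93, SE 0.13, adjusted p = 0.00514), with all RC/RC:*Casp1*KO mice above all RC/RC mice. *Abcc2*, the apical conjugate pump Mrp2, was at 285, 294, 546 and 546 CPM (WT), 166, 79.3, 168 and 293 CPM (RC/RC) and 320.1, 364, 409 and 421 CPM (RC/RC:*Casp1*KO), with log2 fold change -1.26, SE 0.38, adjusted p = 0.0618 and 1.09, SE 0.33, adjusted p = 0.0601 in the same 2 comparisons; with the *Xist* level it passed in both (log2 fold change -1.25, SE 0.25, adjusted p = 0.00841 and 1.21, SE 0.28, adjusted p = 0.0222).

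The wider proximal tubule list, which shares markers with the list above, had 3 of 23 genes lower and 0 higher in RC/RC against WT, with a median of -0.56. When RC/RC:*Casp1*KO was set against RC/RC, 3 rose and none fell, with a median of 0.26. Of all genes 3.18% were called lower in the first and 7.23% higher in the second. *Lrp2*, the endocytic receptor megalin, was at 1538, 1638, 2858 and 3102 CPM (WT), 1541, 802, 733 and 1307 CPM (RC/RC) and 3972, 3394, 2712 and 2463 CPM (RC/RC:*Casp1*KO) and rose in the second (log2 fold change 1.52, SE 0.28, adjusted p = 0.0144). The fit with the *Xist* level had 4 lower in the first and 6 higher in the second, beside 5.84% and 9.79% of all genes. Of the 6 proximal tubule markers 2 rose and none fell in RC/RC:*Casp1*KO against RC/RC, where 7.23% of all genes were called higher. Their median was 1.02 and the transporter median 0.32. Their part in the transporter values was not tested.

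Other cell types changed beside the transporters. In RC/RC against WT, 8 of 12 injury and cyst epithelium genes rose and 0 fell. So did 4 of 5 macrophage, 3 of 4 T cell, 2 of 2 B and plasma cell and 4 of 4 fibroblast markers. By contrast, 2 of 4 markers of the thick ascending limb and distal tubule and 1 of 3 podocyte markers fell. Of all genes 9.76% were called higher and 3.18% lower in that comparison. Markers of endothelium, collecting duct and hepatocyte had no call. The summed CPM of the fibroblast markers, with *Col3a1* the most abundant, was 182, 123, 137 and 182 (WT), 809, 1312, 722 and 558 (RC/RC) and 206, 299, 206 and 471 (RC/RC:*Casp1*KO), and that of the macrophage markers, with *Csf1r* the most abundant, 106, 103, 107 and 100.3 (WT), 263, 209.7, 187 and 179.8 (RC/RC) and 175, 160.3, 118 and 224 (RC/RC:*Casp1*KO). Against RC/RC, 3 fibroblast markers, 1 macrophage marker and 3 injury genes fell in RC/RC:*Casp1*KO mice, where 4.41% of all genes were called lower. Of the 4 markers of the thick ascending limb and distal tubule 1 rose there, where 7.23% of all genes were called higher. It was *Slc12a3* (log2 fold change 1.44, SE 0.39, adjusted p = 0.0454). RC/RC:*Casp1*KO mouse 4 stood nearest to the RC/RC group in *Lcn2* and in fibroblast markers. Their part in the transporter values was not tested.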

How the data were processed

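Kidney poly(A) RNA was sequenced from 12 mice in 3 groups of 4. The authors deposited 1 table of raw, unnormalized read counts for every gene and mouse. The submitters' processing notes name CASAVA 1.8, STAR and mm10; the counting tool, annotation and strand setting are not given in the sources used here, so antisense reads cannot be told apart. Per the file headers, the deposited table also gives gene start, end and length in bases, FPKM values, and the authors' own fold changes and p-values for each pair of groups; the latter 3 were not used. Columns of no known group numbered 0. The columns name a group and a mouse number, so each was assigned to a group. Depth is given with the results; with counts of 3 or fewer a level is at the floor, and p-values and floors cover these libraries only.

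Each comparison was fitted on its 8 mice with edgeR 4.0.16 (R 4.3.3; glmQLFit and glmQLFTest, TMM factors, filterByExpr), with males and females together as in the study's methods. A gene was called at an adjusted p under 0.05 (Benjamini-Hochberg, over all genes tested). The SE of a log2 fold change was taken as its ratio to the root of F. The *Xist* fit adds log2(*Xist* CPM + 0.5) of each mouse as a numeric covariate; it was planned as an alternative. Mice were divided at 100 CPM of *Xist* for description only. The other alternatives were DESeq2 1.42.0 (Wald test), RLE size factors, library size alone, no filter on low counts, 1 fit of all 12 mice and leaving out each mouse; the *Xist* fit combined with these, and *Ddx3y* in place of *Xist*, were chosen after seeing the data. Fits were tested on simulated data. Near copies were sought with BLAST 2.17.0 among the genes' own GRCm39 reference transcripts (90% identity over at least 100 bases), and promoters are from RefSeq.

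Values in every mouse are given for transporter genes called in the fit of groups alone and for the transporters best known from kidney, 21 by a fixed list; other genes named were chosen after their values were seen. Results for 3 genes are not reported here. The members and lists were chosen with earlier results of these data known.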

Additional observations from a re-analysis of the deposited data

Results flagged for a closer look

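In 4 of 144 groups of 4 mice (45 genes and 3 sums, each in 3 groups) 1 mouse stood apart, its gap to the nearest other mouse taking more of the group's range than Dixon's limit at the 95% level allows. Chance gives about 1 in 20 such groups if the 4 values come from a single normal distribution. None of the 4 was a transporter gene of the 51. Each group holds mice on both sides of the *Xist* split, which widens the range of a gene that follows it. Such a gene can hardly be flagged by this rule, so the absence of transporter genes says little about them. *Lcn2* was at 62.1 CPM in RC/RC:*Casp1*KO mouse 4, against 4.65 to 12.7 CPM in the other 3 mice of that group. *Slc13a3*, the dicarboxylate transporter, was at 405 CPM in the same mouse, against 534 to 559 CPM. *Abcc5* was at 58.9 CPM in RC/RC:*Casp1*KO mouse 3, against 74.96 to 75.9 CPM. *Casp1* was at 2.06 CPM in WT mouse 1, against 1.29 to 1.41 CPM.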

How the results depend on the processing

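In RC/RC against WT, 0 transporter genes were called lower with the groups alone, 2 with DESeq2 and 7 with the *Xist* level. When a mouse was left out, 0 to 3 were called lower (3 without RC/RC mouse 1, where 3.81% of all genes were). With the groups alone 0 were called higher, and 0 to 1 when a mouse was left out (1 without WT mouse 1, where 8.29% of all genes were). With RC/RC as the reference, 1 gene was called higher in RC/RC:*Casp1*KO, 3 with DESeq2 and 7 with the *Xist* level. When a mouse was left out, 1 to 2 were called higher. The 2 came without RC/RC mouse 1 or RC/RC:*Casp1*KO mouse 1 or 4, where 3.37% to 9.5% of all genes were. With the groups alone 0 were called lower, 1 with DESeq2, 1 with the fit of all 12 mice (5.71% of all genes) and 1 with the *Xist* level. When a mouse was left out, 0 to 1 were called lower (1 without RC/RC mouse 1, where 8.3% of all genes were). In RC/RC:*Casp1*KO against WT, 0 were called higher, 2 with DESeq2, 1 with library size alone (1.83% of all genes) and 1 with the *Xist* level. With the groups alone 0 were called lower, 1 with DESeq2 and 4 with the *Xist* level. The cause of these changes was not tested.

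Within the *Xist* fit, the 7 genes lower in RC/RC against WT became 4 to 12 when a mouse was left out (4 without RC/RC mouse 3, where 2.74% of all genes were called lower, and 12 without RC/RC mouse 1, where 13.2% were), and the 0 higher became 1 with library size alone, 1 with DESeq2 and 0 to 1 when a mouse was left out. The 7 higher in RC/RC:*Casp1*KO against RC/RC (9.79% of all genes) became 10 with DESeq2 (12.9%), 8 with RLE size factors (10.2%) and 8 with library size alone (9.31%). They became 6 with *Ddx3y* in place of *Xist* (9.85%) and 4 to 9 when a mouse was left out. The 4 came without RC/RC mouse 3 or RC/RC:*Casp1*KO mouse 2 or 3, where 3.36% to 4.24% of all genes were called higher. The 9 came without RC/RC mouse 4, where 9.87% were. The 1 lower became 0 with library size alone (4.47% of all genes lower) and 0 to 1 when a mouse was left out. In RC/RC:*Casp1*KO against WT, the 1 higher became 0 with RLE size factors (4.39% of all genes), 2 with library size alone (7.94%) and 3 with DESeq2 (8.99%). It became 2 with *Ddx3y* in place of *Xist* (4.66%) and 0 to 5 when a mouse was left out (5 without RC/RC:*Casp1*KO mouse 3, where 14% of all genes were called higher). The 4 lower became 1 to 5 when a mouse was left out. The 1 came without WT mouse 2, where 1.16% of all genes were called lower. The 2 came without WT mouse 1 or RC/RC:*Casp1*KO mouse 1, 2 or 4, where 1.14% to 1.83% were. The 5 came without RC/RC:*Casp1*KO mouse 3, where 13.3% were. The *Xist* level varied also among mice on 1 side of the split, and with it *Kdm5d* of the Y chromosome was called lower in RC/RC against WT (log2 fold change -1.22, SE 0.27, adjusted p = 0.0127).

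For RC/RC:*Casp1*KO with RC/RC as the reference, 2 of the log2 fold changes printed for the groups alone changed sign. That of *Slc22a7* ranged from -0.23 to 0.68 when a mouse was left out. That of *Slc22a12* was 0.054 with library size alone, 0.0023 with the fit of all 12 mice, 0.18 with the *Xist* level and -0.32 to 0.31 when a mouse was left out. Between the fit of groups alone and that with the *Xist* level, the sign differed for 3 of the 38 genes in RC/RC against WT, 4 in RC/RC:*Casp1*KO with RC/RC as the reference (*Slc17a2*, *Slc22a12*, *Slc22a26* and *Slc22a27*) and 7 in RC/RC:*Casp1*KO against WT. Single-gene values printed were set against each alternative in turn, and each such pair was counted once. With a mouse left out, 367 pairs kept direction and side of the threshold, 66 lost a call, 8 gained one and 7 changed sign. Under the other alternatives 261 pairs kept both, 5 lost a call, 27 gained one and 3 changed sign.

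Over all genes, library size alone called 1634 higher and 263 lower in RC/RC against WT (1487 and 484 with TMM), 814 and 179 for RC/RC:*Casp1*KO with RC/RC (1116 and 681), and 281 and 71 in RC/RC:*Casp1*KO against WT (174 and 137), and moved the median of all genes in the last from 0.01 to 0.14. DESeq2 called 1857 and 1043, 1748 and 1459, and 736 and 630. Depth limits the rarest tested genes, such as *Slc22a3*, and the 13 genes not tested. No paired analysis was possible because the columns carry a group and a mouse number and not the replicate number of the labels.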

Other observations

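A pair of other rows of neighbours also held genes of opposite direction or of no direction, in genes chosen after their values were seen. On chromosome 13 (13:23806993-23915007, mm10) the genes lie in the order *Slc17a2*, *Slc17a3*, *Slc17a1* and *Slc17a4*. *Slc17a2* was higher in all mice with *Xist* reads (12.2 to 30.8 CPM against 0.0540 to 0.409 CPM), while its neighbour *Slc17a3* was lower in all of them (205 to 337 CPM against 344 to 712 CPM). On chromosome 6 (6:141524386-142322981) *Slco1a1* was nearly absent from mice with *Xist* reads, and *Slco1a6*, in the same row, was at 170 to 391 CPM in mice with and 151 to 284 CPM in mice without them, with overlap. The sides were set from the data, so these are descriptions with no test.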
